A study of Mus musculus with 168 samples.

Results

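MicroRNAs were measured in the cortex of heterozygous Q80, Q92 and Q111 Htt knock-in mice at 2 months and at 10 months of age, and the 48 libraries of these genotypes and ages were taken by their titles from a series of 168. Each genotype gave 8 mice at each age, 4 female and 4 male by the labels except for Q80 at 2 months with 3 female and 5 male, so that 24 mice of 2 months were compared with 24 other mice of 10 months. All were C57BL/6 mice with 1 wild type Htt allele and 1 Htt allele carrying human HTT exon 1 sequence with an expanded CAG repeat, whose approximate length is the number in the genotype name, and each was housed with mice of its own line. The series holds the same ages for Q20 knock-in and WT controls and for the longer repeats Q140 and Q175, which are used here only to compare the age effect.

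MicroRNAs are short RNAs cut from a hairpin in a longer transcript, and they guide Argonaute proteins to messenger RNAs. Pairing runs mainly through the seed, bases 2 to 8 of the mature strand, and usually lowers the stability or the translation of the target. In the mouse cortex, synapses mature and myelin is still added after weaning, and several of the families described here are known from these cells, among them Mir29 in maturing neurons and Mir219 and Mir338 in oligodendrocytes.

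The sequences shown are those of the families and single microRNAs on which the comparison of the ages turned, printed 5′ to 3′ from RefSeq on GRCm38.p6 with the seed in capitals. The first 3 share a seed and belong to the Mir29 family, the next 3 share the seed of the Mir30 family, and the Mir148 pair also has 1 seed. They are followed by single microRNAs that changed strongly and by those of oligodendrocytes. RefSeq gave a mature sequence for 326 of the 401 loci tested. Counts were made per hairpin, so that the 5p and 3p strands were not measured apart.
mmu-miR-29a-3p: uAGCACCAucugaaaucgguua
mmu-miR-29b-3p: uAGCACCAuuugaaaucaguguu
mmu-miR-29c-3p: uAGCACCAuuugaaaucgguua
mmu-miR-30a-5p: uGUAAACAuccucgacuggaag
mmu-miR-30c-5p: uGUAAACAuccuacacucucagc
mmu-miR-30e-5p: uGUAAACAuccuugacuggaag
mmu-miR-148a-3p: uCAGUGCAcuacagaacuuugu
mmu-miR-148b-3p: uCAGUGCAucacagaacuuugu
mmu-miR-7a-5p: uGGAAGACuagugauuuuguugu
mmu-miR-193a-3p: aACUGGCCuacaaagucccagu
mmu-miR-296-5p: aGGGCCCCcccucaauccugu
mmu-miR-298-5p: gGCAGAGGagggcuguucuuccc
mmu-miR-338-3p: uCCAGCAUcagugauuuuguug
mmu-miR-219a-5p: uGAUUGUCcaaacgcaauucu

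Libraries held 3241649 to 6186314 estimated counts, with medians of 4842901 at 2 months and 4698305 at 10 months. Levels are given as CPM (counts scaled to a common library total) after TMM normalization, which serve to compare 1 locus between libraries. A locus was tested where the annotation names it a microRNA and its mean was at least 5 counts over the 48 libraries. Changes are 10 months minus 2 months on the log2 scale, with the standard error over 24 mice of each age, and FDR is the Benjamini-Hochberg adjusted p of the quasi-likelihood F test of edgeR. Library names carry an L code whose meaning the labels do not give. At 2 months the code was L1 in 8 libraries, L2 in 10, L3 in 4 and L7 in 2, and at 10 months it was L6 in 11, L7 in 11 and L8 in 2. Outside L7, age and L code cannot be told apart. A fit with the L code as a covariate therefore takes the age effect only from L7, with 2 mice of 2 months, and what it changes among the named loci and in the counts of each list is given beside them.

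Some libraries of 2 months stood apart. Mir182, a microRNA of sensory and epithelial cells, was at 3844 to 26920.5 CPM in 6 of the 24, whereas it was at 159.7 to 486 CPM in the other 18 and at 232 to 818 CPM in the 24 of 10 months. Those 6 came from all 3 genotypes, with 2 from Q80, 1 from Q92 and 3 from Q111, and over all 7 genotypes such levels occurred in 22 of 56 libraries of 2 months and in 0 of 56 of 10 months. The 8 libraries of the series numbered 322916 to 322923 all carry the code L1, and 5 of them were in this comparison. Those 5 had 1.96 to 8.0 CPM of Mir1928 against 44.7 to 230.3 CPM in the other 19 of 2 months. The 2 sets together held 10 of the 24 libraries of 2 months, and counts of calls in a list are also given without them where they differ.

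**Figure D1:**
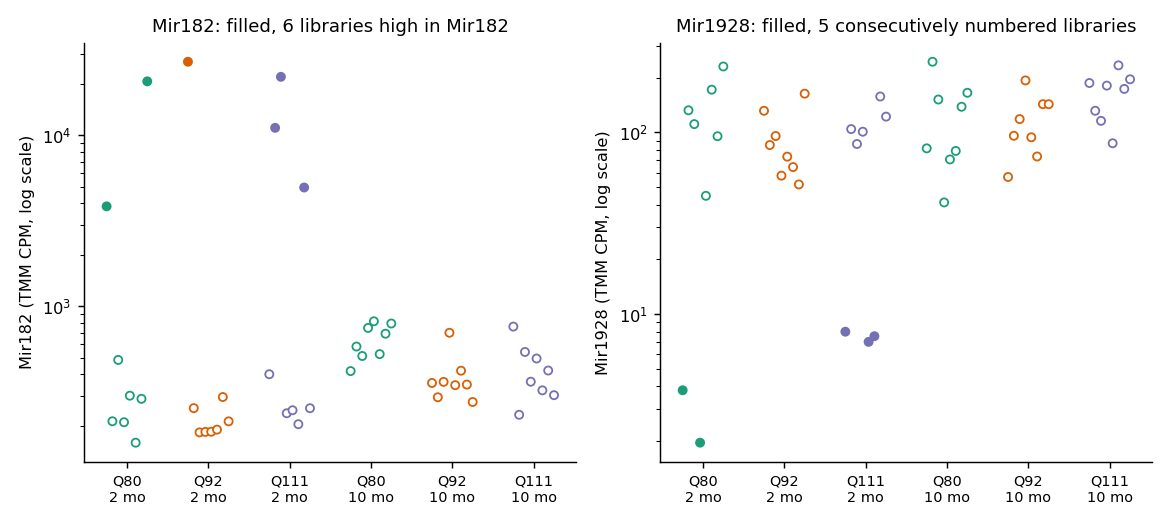
Level of Mir182 (left) and Mir1928 (right) in each of the 48 libraries, in TMM CPM on a log scale, by genotype and age with 8 libraries a column. Filled points on the left are the 6 libraries of 2 months with Mir182 at 3844 to 26920.5 CPM. Filled points on the right are the 5 libraries whose numbers lie within 322916 to 322923, with Mir1928 at 1.96 to 8.0 CPM. Open points are all others.

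Neuronal microRNAs were abundant at both ages in these libraries labelled cortex. The summed level of the 15 neuronal loci tested was 101644 to 116286 CPM at 2 months and 113910 to 132684 CPM at 10 months. Mir122, which marks liver, had medians of 0.811 and 1.29 CPM.

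Between 2 and 10 months, 124 microRNA loci rose (30.9% of the 401 tested) and 137 fell (34.2%), 65.1% in all at FDR<0.05. Most changes were small. The median of all 401 changes was 0.00, the median rise was 0.26, the median fall was −0.34, and 28 loci (6.98%) changed by more than 2-fold, 8 upward (2%) and 20 downward (4.99%). The 20 hold all 8 epithelial and sensory loci given below, which were called higher without the 6 libraries high in Mir182. Tested apart with 8 mice of each age, Q80 gave 139 calls (34.7%), with 72 rising (18%) and 67 falling (16.7%). Q92 gave 166 (41.4%), with 79 rising (19.7%) and 87 falling (21.7%), and Q111 gave 164 (40.9%), with 71 rising (17.7%) and 93 falling (23.2%). Of these, 86 loci (21.4%) passed in all 3 genotypes in 1 direction, 38 upward and 48 downward. For 13 loci (3.24%) the 24 libraries of one age did not overlap the 24 of the other, with 8 higher (2%) and 5 lower (1.25%) at 10 months. In bulk tissue, fewer cells of a type and less RNA per cell cannot be told apart. Without both sets of libraries that stood apart 239 loci passed, of which 220 were among the 261 with the same sign. The fit with the L code as a covariate called 116, of which 102 were among the 261 with the same sign, and among the L7 libraries alone 98 passed.

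**Figure D2:**
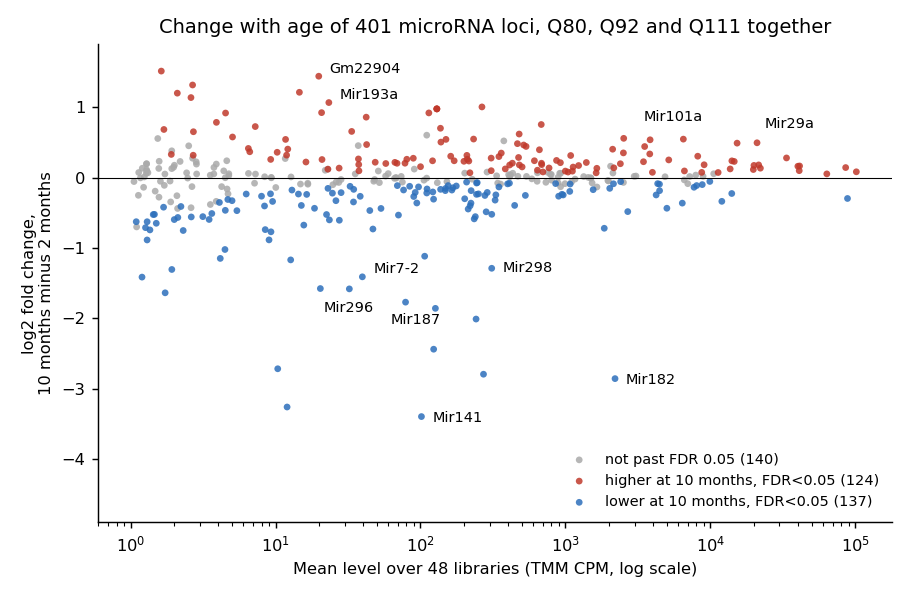
Change with age (log2, 10 months minus 2 months) of the 401 loci tested against their mean level over the 48 libraries (TMM CPM, log scale). Red points rose (124), blue points fell (137) and grey points did not pass FDR 0.05, and Mir141 and Mir182 belong to the 8 epithelial and sensory loci whose direction turned without the 6 libraries high in Mir182.

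Among the loci that rose, Mir29a had the smallest p. Its level was 15992 to 19441 CPM (median 17465) at 2 months and 21178 to 26467 CPM (median 24724) at 10 months. Every library of 10 months was above every library of 2 months. The change was 0.49 ± 0.02 (FDR 4.82e-24, edgeR), or 1.41-fold, with 0.54 in Q80, 0.52 in Q92 and 0.41 in Q111. Mir29a lies on chromosome 6 at 31062660 to 31062747 (GRCm38, minus strand), next to Mir29b-1.

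All 4 loci of the Mir29 family rose, where 30.9% of all loci tested rose. The family, whose shared seed is printed above, is known for repressing DNA methyltransferases, collagens and elastin. Mir29c, on chromosome 1 in an exon of the noncoding A330023F24Rik, was at 1702 to 2424 CPM (median 2035) at 2 months and 2581 to 3399 CPM (median 2987) at 10 months. Again the ages did not overlap, and the change was 0.56 ± 0.03 (FDR 6.37e-20, edgeR). Its neighbour Mir29b-2 rose from a median of 569 to 758 CPM (0.40 ± 0.04) and Mir29b-1 from 113 to 181 CPM (0.54 ± 0.09). These 2 loci give the same mature 3p strand, and the files do not show how its reads were divided. The median change of the family was 0.52 against 0.00 for all loci tested, and all 4 passed in each genotype. Mir29a (0.37) and Mir29c (0.29) also passed with the L code as a covariate, whereas Mir29b-1 (0.44) and Mir29b-2 (0.21) did not.

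The Mir30 family is abundant in the brain, and its loci changed by different amounts. Mir30b was at 2720 to 3708 CPM (median 3107) at 2 months and 4021 to 5138 CPM (median 4499) at 10 months. The ages did not overlap, and the change was 0.54 ± 0.03 (FDR 1.36e-20, edgeR). Mir30c-2 went from 10386 to 16312 CPM (median 12306) to 16273 to 19699 CPM (median 17751), and 23 of the 24 older mice were above all younger ones. Its change was 0.49 ± 0.03 (FDR 8.09e-18, edgeR), with 0.60 in Q80, 0.34 in Q92 and 0.52 in Q111. Mir30e rose by 0.23 ± 0.02, Mir30a by 0.16 ± 0.03 and Mir30d by 0.11 ± 0.02. Mir30c-1 shares the printed 5p strand with Mir30c-2, yet its medians were 780.1 and 798 CPM and its change of 0.05 ± 0.03 did not pass (FDR 0.237, edgeR). How reads of this shared strand were divided between these loci is not given.

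Mir101a, known to target the histone methyltransferase Ezh2, was at 4096 to 6505 CPM (median 5172) at 2 months and 6634 to 9619 CPM (median 7565) at 10 months. No library of one age reached those of the other, and the change was 0.55 ± 0.04 (FDR 1.63e-15, edgeR). Mir193a was scarce, with 9.14 to 19.3 CPM (median 14.8) at 2 months and 20.5 to 44.0 CPM (median 32.2) at 10 months. It was 2.10-fold higher in the older mice without overlap (1.07 ± 0.07, FDR 2.78e-17, edgeR). Its change was 1.33 in Q92 against 0.93 in Q80 and 0.92 in Q111, a difference that did not pass among genotypes.

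Mir133a-1, known from muscle, was at 163 to 216 CPM (median 190.2) at 2 months and 224 to 340.1 CPM (median 272) at 10 months, without overlap. Its change was 0.55 ± 0.03 (FDR 7.79e-20, edgeR). Of the 6 loci tested from the muscle and liver list, 3 rose and 1 fell, with a median of 0.37, where 30.9% of all loci rose and 34.2% fell. Of these calls that of Mir133a-1 alone was kept with the L code as a covariate. The other rising loci were Mir1a-1 (0.54 ± 0.09) and Mir499 (0.58 ± 0.12), which reached at most 19.1 and 9.39 CPM, and Mir208b fell (−0.65 ± 0.23) at a mean of 1.5 CPM. Mir203, known from epidermis, rose from a median of 114 to 160.4 CPM (0.50 ± 0.04, FDR 5.22e-15, edgeR), and 21 of the 24 older mice were above all younger ones.

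Mir15a, in an intron of Dleu2, was at 281 to 493 CPM (median 444) at 2 months and 466 to 666 CPM (median 602) at 10 months. The ages overlapped by 1 older mouse, and the change was 0.46 ± 0.04 (FDR 3.43e-14, edgeR). Mir16-1, which comes from the same host transcript and has the same seed, had medians of 7127 and 7207 CPM and a change of 0.01 ± 0.04 that did not pass. Of the other loci with this seed, Mir15b (−0.17 ± 0.05) and Mir322 (−0.11 ± 0.03) fell, and Mir16-2 and Mir195a did not pass. Mir16-1 and Mir16-2 are numbered copies of the same microRNA, and how their reads were divided is not given.

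The last of the 12 rising loci named by the rule lie in less well annotated places. Mir497b, on the strand opposite to Mir497, was at 320 to 460.1 CPM (median 382) at 2 months and 486 to 674 CPM (median 583) at 10 months, without overlap (0.62 ± 0.04, FDR 1.17e-19, edgeR). Gm25252, opposite to Mir376a, rose from a median of 315 to 409 CPM (0.35 ± 0.03, FDR 7.36e-16, edgeR). The reads were strand-specific, but the sources used here do not say whether the counting used the strand, so that reads of such a locus and of its partner cannot be told apart. Gm22904, on chromosome 12 at 33062441 to 33062600, where RefSeq lists no hairpin, was at 4.58 to 17.4 CPM (median 10.5) at 2 months and 14.9 to 41.1 CPM (median 28.2) at 10 months, 2.72-fold higher with 23 of the 24 older mice above all younger ones (1.44 ± 0.12, FDR 1.20e-14, edgeR).

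Among the loci that fell, Mir296 had the smallest p. Its level was 36.2 to 60.9 CPM (median 47.8) at 2 months and 11.5 to 27.0 CPM (median 15.7) at 10 months. The ages did not overlap, and the level was 3.0-fold lower in the older mice. The change was −1.58 ± 0.07 (FDR 1.40e-24, edgeR), with −1.61 in Q80, −1.62 in Q92 and −1.54 in Q111. Mir298 lies beside it on the minus strand of chromosome 2, Mir296 at 174267047 to 174267125 and Mir298 at 174267504 to 174267585, near the imprinted Gnas gene. Mir298 was at 349 to 660.1 CPM (median 431) at 2 months and 128 to 391 CPM (median 165) at 10 months, and only 1 older mouse, Q92 Female replicate 1, reached the younger ones. Its change was −1.29 ± 0.09 (FDR 1.09e-16, edgeR).

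Mir187 was 3.41-fold lower at 10 months. It was at 36.6 to 161 CPM (median 126) at 2 months and 21.5 to 91.2 CPM (median 31.6) at 10 months, and 16 of the 24 older mice were below all younger ones. The younger mouse at 36.6 CPM, Q92 Female replicate 3, was the only one that older mice reached. The change was −1.77 ± 0.13 (FDR 3.82e-16, edgeR). Mir7 is known from neuroendocrine cells, and all 3 of its loci fell, where 34.2% of all loci tested fell. The 3 loci share a seed, and the files do not show how reads were divided between them. Mir7-2 was at 28.4 to 81.2 CPM (median 58.6) at 2 months and 10.6 to 51.0 CPM (median 19.5) at 10 months (−1.41 ± 0.13, FDR 4.95e-13, edgeR), with 19 of the 24 older mice below all younger ones. Mir7b went from a median of 60.4 to 44.8 CPM (−0.44 ± 0.06) and Mir7-1 from 174 to 154 CPM (−0.18 ± 0.04). Mir375, the microRNA of pancreatic islets in the same list, rose from a median of 73.8 to 83.3 CPM (0.26 ± 0.07). The 3 Mir7 loci also fell with the L code as a covariate, and Mir375 did not pass there.

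Mir3099 was at 46.1 to 71.6 CPM (median 59.7) at 2 months and 28.4 to 44.0 CPM (median 34.3) at 10 months, without overlap (−0.73 ± 0.05, FDR 3.78e-17, edgeR). Mir148a was at 1711 to 2708 CPM (median 2369.7) at 2 months and 977 to 1930.5 CPM (median 1393) at 10 months, and 22 of the 24 older mice were below all younger ones. Its change was −0.72 ± 0.06 (FDR 1.62e-15, edgeR), with −0.54 in Q80, −0.95 in Q92 and −0.69 in Q111. The loci with the Mir148a seed differed in direction. Mir148b had medians of 902 and 882 CPM and did not pass (−0.08 ± 0.04), and Mir152 rose (0.20 ± 0.04). Mir92b fell from a median of 7176 to 5569 CPM (−0.36 ± 0.03, FDR 2.03e-13, edgeR), and of the 5 other loci with its seed Mir32 rose (0.22 ± 0.07), Mir363 fell at a mean of 2.22 CPM (−0.41 ± 0.17) and the rest did not pass.

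On the X chromosome, Mir351 was at 245 to 372 CPM (median 275) at 2 months and 158 to 220.2 CPM (median 194) at 10 months, without overlap (−0.56 ± 0.04, FDR 7.36e-16, edgeR). It shares the seed of the Mir125 family and lies in a cluster of 6 tested loci at 53047997 to 53054349, in which 4 fell and 0 rose. Over all loci tested 34.2% fell and 30.9% rose. The other falling members were Mir322, given above, Mir542 (−0.23 ± 0.10) and Mir503 (−0.57 ± 0.15), the last at a mean of 2.12 CPM. Mir676, also X-linked, fell from a median of 369.9 to 252 CPM (−0.52 ± 0.04, FDR 1.66e-16, edgeR), with 22 of the 24 older mice below all younger ones.

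Gm24083, on the strand opposite to Mir191, was at 13277 to 16712 CPM (median 15335) at 2 months and 12327 to 13750 CPM (median 12959.9) at 10 months. The fall was small, and 21 of the 24 older mice were below all younger ones (−0.23 ± 0.02, FDR 1.43e-13, edgeR). Of the 24 loci named by the rule, it alone did not pass with the L code as a covariate, where its change was −0.11. Within L7 the 2 younger mice lay wholly above or wholly below the 11 older ones for the other 23. These loci were chosen by their p over the 48 libraries, which include those of L7, so that this is not an independent check.

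**Figure D3:**
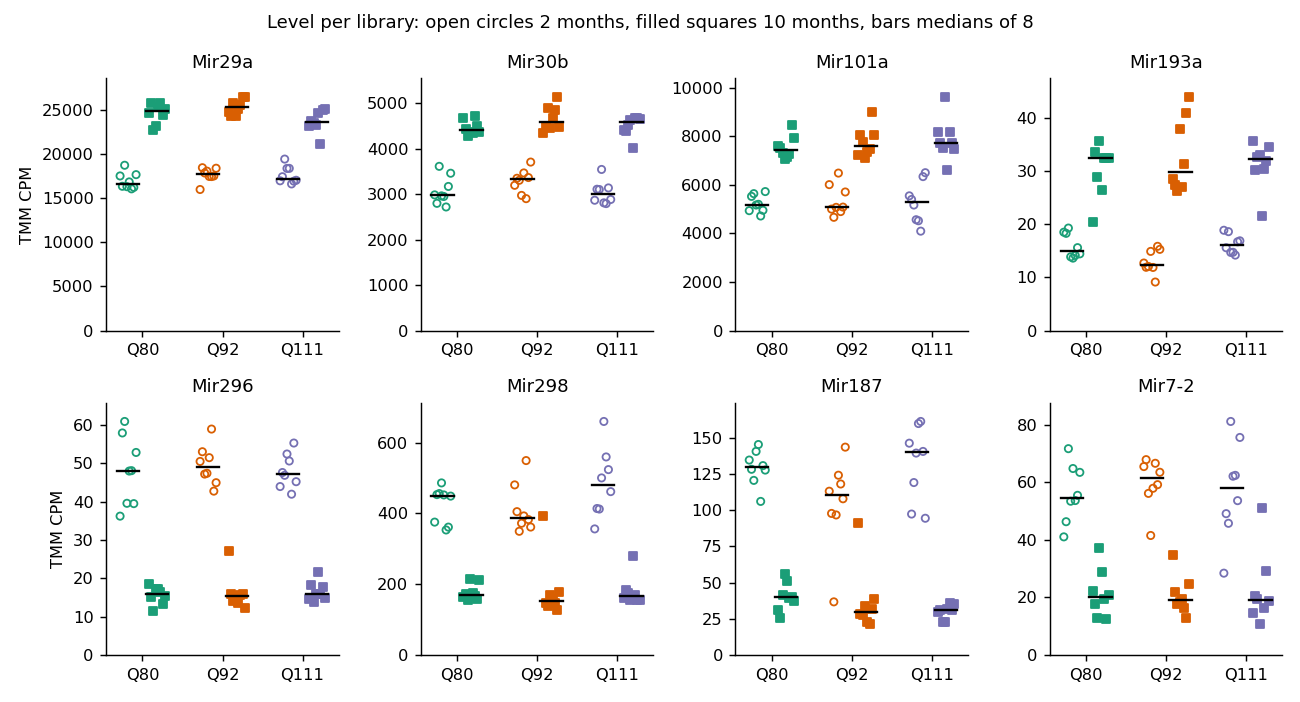
Level (TMM CPM) of 4 loci that rose (top) and 4 that fell (bottom) in each library, by genotype, with open circles for 2 months, filled squares for 10 months and bars at the medians of 8. Mir29a, Mir30b, Mir101a, Mir193a and Mir296 do not overlap between the ages, whereas Mir298, Mir187 and Mir7-2 do.

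**Figure D4:**
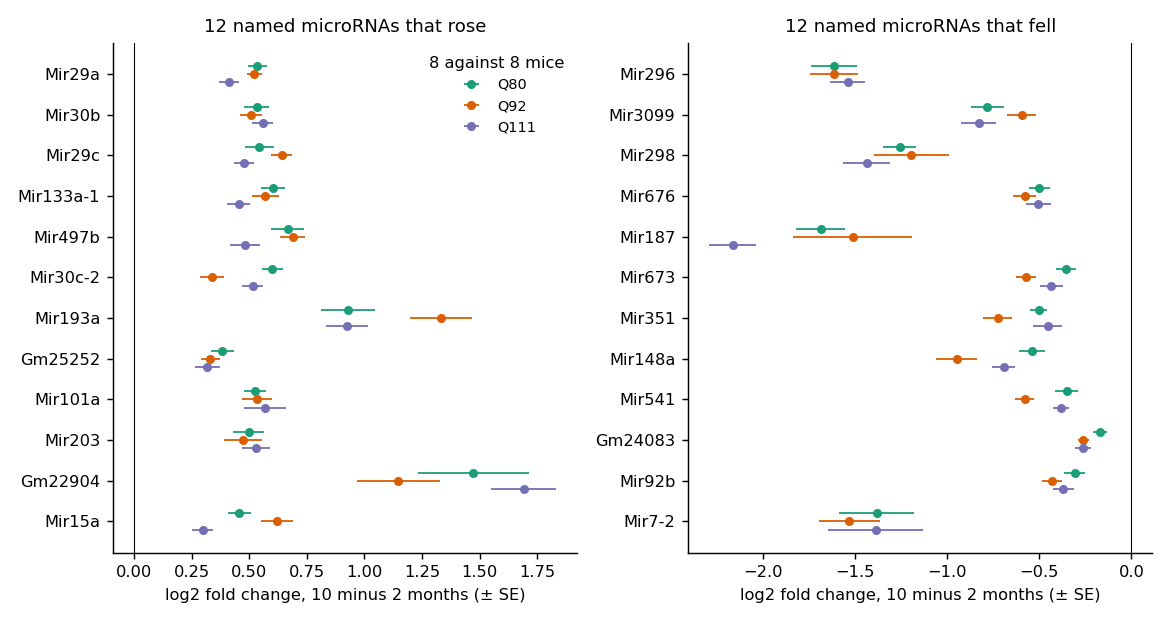
Change with age (log2, 10 months minus 2 months, ± SE) of the 12 named loci that rose (left) and the 12 that fell (right) in Q80, Q92 and Q111, each with 8 against 8 mice. The naming rule asked for 1 sign in the 3 genotypes, so that all points of a panel lie on 1 side of 0.

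Many loci of the imprinted Dlk1-Dio3 region on chromosome 12, a large microRNA cluster expressed from the maternal chromosome, fell. Of 48 loci tested there, 29 fell and 8 rose, with a median of −0.15, against 34.2% falling and 30.9% rising among all loci tested. Mir127, the most abundant of them, was at 83455 to 114014 CPM (median 95169) at 2 months and 70724 to 90553 CPM (median 79080) at 10 months (−0.30 ± 0.03), and 18 of the 24 older mice were below all younger ones. Mir673 was at 219 to 283 CPM (median 244) and then 147 to 211 CPM (median 177), without overlap (−0.45 ± 0.03, FDR 7.36e-16, edgeR). Mir541 fell from a median of 5776 to 4226 CPM (−0.44 ± 0.04, FDR 5.15e-14, edgeR) and Mir770, in an exon of Meg3, from 81.2 to 57.1 CPM (−0.53 ± 0.06). Mir434 rose (0.17 ± 0.05), as did Mir3071 (0.30 ± 0.03), which lies opposite to Mir136. Without both sets of libraries 30 fell and 5 rose, and with the L code as a covariate 9 fell and 4 rose.

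The Sfmbt2 cluster is a rodent array of repeated hairpins in an intron of Sfmbt2 on chromosome 2. Of 14 loci tested there, 13 fell and 0 rose, with a median of −0.65 and values from −1.31 to −0.47. Among all loci tested 34.2% fell and 30.9% rose. Mir467a-1, the most abundant, was at 14 to 23.5 CPM (median 19.4) at 2 months and 7.44 to 18.3 CPM (median 12.1) at 10 months, and 20 of the 24 older mice were below all younger ones (−0.68 ± 0.07, FDR 9.31e-12, edgeR). Mir669c (−0.77 ± 0.09) and Mir467d (−0.74 ± 0.09) fell as well. The members are near copies of each other, so that reads could be divided between them and the loci do not count as separate evidence. All are scarce, with a summed level of 58.7 to 88.2 CPM at 2 months and 33.3 to 62.3 CPM at 10 months. Under the L code covariate 7 fell and 0 rose, and without both sets of libraries 12 fell and 0 rose.

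Of the oligodendrocyte microRNAs, Mir338 and Mir219a-2, which promote the maturation of these cells, rose. Mir338 was at 2508 to 3817 CPM (median 2979) at 2 months and 2501 to 4748 CPM (median 4102) at 10 months (0.44 ± 0.04, FDR 3.12e-13, edgeR). Mir219a-2 was at 387 to 533 CPM (median 460.3) and then 366 to 713.9 CPM (median 631) (0.44 ± 0.04, FDR 8.07e-13, edgeR). For both, the older mice were mostly above the younger ones, but the lowest library of all was from an older mouse. Mir219a-1 had a mean of 4.76 CPM and did not pass (0.03 ± 0.10). In Q92 alone Mir219a-1 was called lower (−0.46 ± 0.18, FDR 0.0454, edgeR), whereas its changes in Q80 (0.20) and Q111 (0.32) did not pass. Its difference among genotypes did not pass either. Both rising loci have an annotated hairpin on the opposite strand, and both also passed with the L code as a covariate.

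The neuronal list held small changes, with 10 of 15 loci rising, 1 falling and a median of 0.09, where 30.9% of all loci rose and 34.2% fell. Several members are numbered copies of the same microRNA, such as Mir128-1 and Mir128-2 or the loci of Mir124. How reads were divided between such copies is not given, so that they do not count as separate evidence. Mir128-1 rose from a median of 29280.3 to 36463 CPM (0.28 ± 0.04), Mir129-1 from 383 to 438 CPM (0.18 ± 0.03) and Mir9-2, the most abundant, from 39776 to 42259.9 CPM (0.10 ± 0.03). Of the loci of Mir124, which is specific to neurons, Mir124a-3 fell (−0.22 ± 0.09) and the more abundant Mir124a-1 did not pass (−0.09 ± 0.05). Without the 6 libraries high in Mir182, 7 rose and 1 fell, and without both sets 10 rose and 0 fell. With the L code as a covariate 5 rose and 1 fell, and Mir128-1 was at −0.07. Of the activity-regulated microRNAs, Mir134 (−0.16 ± 0.04) and Mir132 (−0.11 ± 0.04) fell, while Mir212, from the same transcript as Mir132, had a change of −0.08 ± 0.04 (FDR 0.0811, edgeR) and passed as lower without both sets of libraries. Of these 3, Mir134 alone passed with the L code as a covariate.

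Let-7 microRNAs, known to accumulate as cells differentiate, gave 5 rising and 2 falling loci of 10, with a median of 0.05, against 30.9% rising and 34.2% falling over all loci. When both sets of libraries were left out 2 rose and 2 fell, without the 6 high in Mir182 3 rose and 3 fell, and without the numbered ones 2 rose and 3 fell. The strongest were Mirlet7g (0.18 ± 0.03) and Mirlet7f-2 (0.18 ± 0.03). With the L code as a covariate these were at −0.09 and −0.03, and 0 loci of the list rose and 1 fell. The Mir17-92 group and its paralogs, known from dividing cells, gave 2 rising and 3 falling loci of 12, with a median of −0.02, both fewer than the 30.9% and 34.2% over all loci. Without both sets of libraries 2 rose and 1 fell, and with the L code as a covariate 1 rose, Mir93, and 0 fell. Mir93 rose from a median of 420 to 519 CPM (0.29 ± 0.03), and Mir17, which has the same seed, fell from 41.0 to 35.5 CPM (−0.27 ± 0.04). Both lists also hold numbered copies of the same microRNA, such as Mirlet7c-1 and Mirlet7c-2, which do not count as separate evidence.

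Inflammatory and microglial microRNAs split in direction, with 3 of 6 loci rising, 2 falling and a median of 0.24, where 30.9% of all loci rose and 34.2% fell. Mir21a, which is induced in reactive glia, was at 1541 to 2029.7 CPM (median 1825) at 2 months and 1760.3 to 2835 CPM (median 2451) at 10 months, and 23 of the 24 older mice were above all younger ones (0.40 ± 0.04, FDR 7.90e-14, edgeR). Mir155 (0.41 ± 0.09) and Mir223 (0.32 ± 0.11) rose at means of 6.49 and 11.9 CPM. Mir146, a brake on innate immune signalling, fell from a median of 230.3 to 187 CPM (−0.40 ± 0.07), and its paralog Mir146b from 435 to 385 CPM (−0.40 ± 0.08). With the L code as a covariate 1 rose and 3 fell, and the median of the list was −0.29.

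Of 6 vascular and blood loci, 2 rose and 2 fell, with a median of −0.04, near the 30.9% and 34.2% over all loci. Mir144 (0.47 ± 0.06) and Mir451a (0.28 ± 0.05), neighbours that red cells express, rose. Mir486, also known from red cells, fell from a median of 3157 to 2287 CPM (−0.48 ± 0.05), and Mir143 of smooth muscle fell (−0.34 ± 0.07). The endothelial Mir126a did not pass (0.02 ± 0.03). Of the 4 calls that of Mir451a alone was kept with the L code as a covariate, where Mir486 was at −0.07. Without the 6 libraries high in Mir182, 2 rose and 3 fell.

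Mir34b (0.86 ± 0.11) and Mir34c (0.75 ± 0.14), known from ciliated cells, and the related Mir34a (0.26 ± 0.04) rose, while Mir449a fell at a mean of 3.15 CPM (−0.56 ± 0.15). None of these 4 passed with the L code as a covariate. Of 6 choroid plexus loci, 2 rose and 2 fell, with a median of 0.40, near the 30.9% and 34.2% over all loci. With the L code as a covariate 0 rose and 0 fell, with a median of −0.06, and without both sets of libraries 1 rose and 1 fell. Their summed level had a median of 3344 CPM at 10 months but reached 12274 CPM in 1 library. Mir204 was at 2371 to 5622 CPM (median 3262) at 2 months and 2669 to 10336 CPM (median 3102) at 10 months, so that it was called as rising (0.34 ± 0.14, FDR 0.0293, edgeR) with a lower median. Without both sets of libraries it did not pass (0.25). The part of choroid plexus tissue in these values was not tested. Of the caudal Hox microRNAs, Mir10b fell from a median of 284 to 193 CPM (−0.59 ± 0.12) and Mir10a rose from 153 to 181.6 CPM (0.24 ± 0.07), and with the L code as a covariate neither passed. Mir10a did not pass without both sets of libraries either (0.18).

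The epithelial and sensory list turned with the libraries. All 8 loci, Mir200a, Mir200b, Mir200c, Mir141, Mir429, Mir96, Mir182 and Mir183, were called lower at 10 months, with changes from −3.40 to −1.86 and a median of −2.76. Over all loci tested 34.2% were called lower. Without the 6 libraries high in Mir182 all 8 were called higher, with a median of 0.98, where 121 of all 401 loci were called higher. Mir182 changed by −2.86 ± 0.65 with all libraries and by 0.94 without both sets. Mir200a was at 209 to 1362 CPM in the 6 libraries, 10.6 to 23.3 CPM in the other 18 of 2 months and 15.6 to 64.1 CPM at 10 months. None of the 8 passed with the L code as a covariate. The source of the signal in the 6 libraries was not tested.

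**Figure D5:**
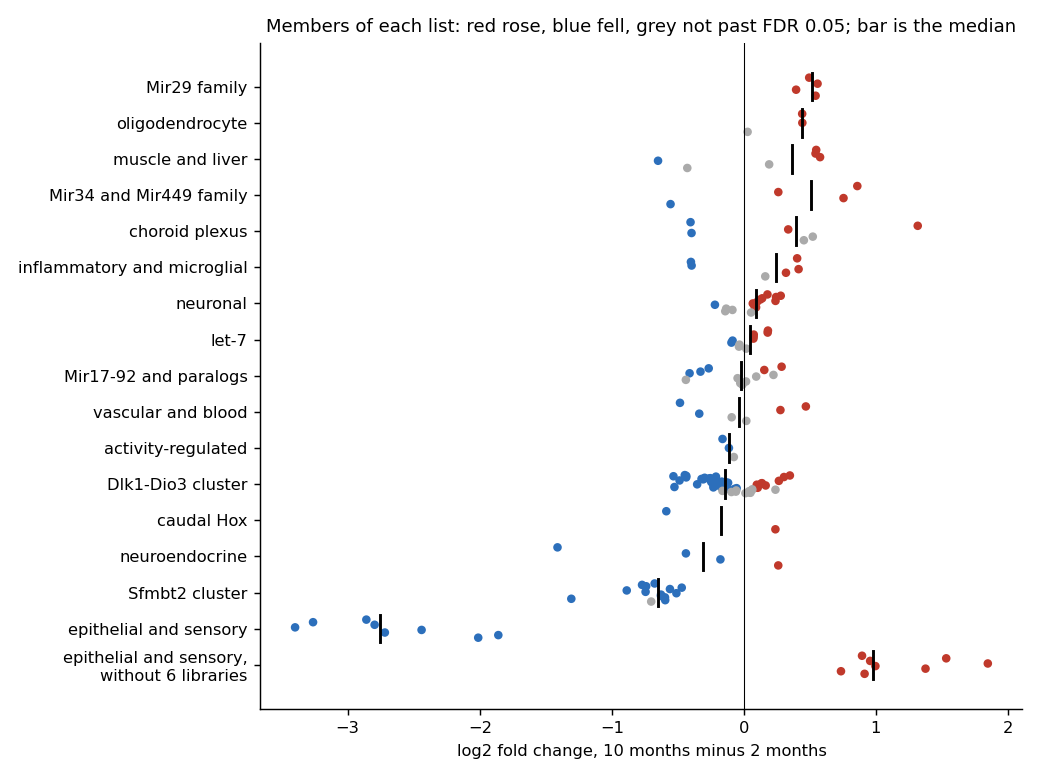
Change with age (log2, 10 months minus 2 months) of each tested member of 16 lists, with red for loci that rose, blue for loci that fell, grey for loci that did not pass FDR 0.05 and a black bar at the list's median. The last line repeats the epithelial and sensory list without the 6 libraries high in Mir182, where its median goes from −2.76 to 0.98.

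A further list holds mostly microRNAs that the study's text linked to CAG length in cortex. Its Mir125b-1 and Mir125b-2 are not named in that text, so that the list is not wholly the study's. Of its 16 loci tested, 3 rose and 6 fell with age, with a median of −0.06, against 30.9% and 34.2% over all loci. The study's values for these names come from mice of 6 and 10 months that include the older mice used here, so that the list is not independent of them. The links also differ. The study took up Mir10b from earlier work on human cortex, and it rose with CAG length at 10 months but moved the other way at 6 months. Mir92b differed between striatum and cortex in its association with CAG length, which had opposite signs in these tissues. Within each tissue the association passed an unadjusted threshold. The study named Mir301b, Mir378b, Mir208b and Mir449a of this list on the same grounds. Without both sets of libraries 4 rose and 7 fell, and with the L code as a covariate 1 rose and 2 fell. The rising loci were Mir125b-2 (0.24 ± 0.04), Mir99a (0.17 ± 0.03) and Mir708 (0.08 ± 0.03). Mir92b, Mir10b and Mir132 were among those that fell.

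Whether the age effect depended on genotype, sex or repeat length was tested by interaction terms. Among Q80, Q92 and Q111, edgeR called 0 of 401 loci (0%), with 37 at an unadjusted p under 0.05, and DESeq2 called 0. Between the sexes edgeR called 0 (20 unadjusted) and DESeq2 1. Against the Q20 and WT controls edgeR called 0 (30 unadjusted) and DESeq2 1, and against Q140 edgeR called 0 (29 unadjusted) and DESeq2 0. These counts do not show that the age effects were equal.

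Against Q175, 28 loci (6.98%) differed in their change with age, 15 with a higher and 13 with a lower change in Q80, Q92 and Q111. With the L code as a covariate 24 were called, 19 of them among the 28, and without both sets of libraries 28, 15 of them among the 28. Levels in this comparison come from a normalization over the 2- and 10-month libraries of all 7 genotypes, and differences are the change in Q80, Q92 and Q111 minus that in Q175. Mir135b was at 55.8 to 77.7 CPM (median 69.3) at 2 months and 51.4 to 79.2 CPM (median 67.2) at 10 months in the 3 genotypes. In the 8 Q175 mice of each age it was at 56.9 to 72.7 CPM (median 69.4) and then 42.7 to 54.2 CPM (median 48). The older Q175 mice were all below the younger ones, whereas the ages overlapped in the 3 genotypes. The difference was 0.48 ± 0.08 (FDR 6.08e-05, edgeR). Mir674 had medians of 318 and 387 CPM in the 3 genotypes and 332 and 311 CPM in Q175 (0.32 ± 0.06, FDR 6.65e-04, edgeR). Mir212, an activity-regulated microRNA, had medians of 1565 and 1513 CPM against 1568 and 1237 CPM (0.30 ± 0.07, FDR 0.00701, edgeR).

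Some loci with a lower change in the 3 genotypes belonged to the clusters described above. Over all 401 loci tested, 13 had a lower change. In the Sfmbt2 cluster, whose members are near copies of each other, 3 of 14 loci were called, all lower. Mir669c had medians of 11.9 and 6.70 CPM against 12.3 and 11.2 CPM in Q175 (−0.71 ± 0.16, FDR 0.00648, edgeR), and Mir467a-1 19.4 and 12.1 CPM against 20.2 and 18.2 CPM (−0.55 ± 0.13, FDR 0.00701, edgeR). In the Dlk1-Dio3 region 5 of 48 were called, all lower, among them Mir496a with medians of 143 and 129.6 CPM against 143 and 152 CPM (−0.30 ± 0.07, FDR 0.00701, edgeR). The change of Mir148a was higher in the 3 genotypes, with medians of 2342 and 1390.5 CPM against 2328 and 1094 CPM (0.39 ± 0.11, FDR 0.0212, edgeR).

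The 24 libraries of the same genotypes at 6 months, which are named and coded in another way, were set beside both ages without a test. The median at 6 months lay between those of 2 and 10 months for 4 of the 12 named loci that rose and 2 of the 12 that fell. Mir296 had medians of 46.5, 17.7 and 15.2 CPM at 2, 6 and 10 months. Mir29a had 17267, 17105 and 24139.5 CPM, and Mir187 had 122, 125 and 30.7 CPM, so that their 6-month medians were near those of 2 months. Mir30b had 3016, 1727 and 4397 CPM, lowest at 6 months. Age and the making of the 6-month libraries cannot be told apart.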

How the data were processed

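Small RNA of mouse cortex was sequenced as clipped, strand-specific single-end reads, which the authors aligned to mm10 with STAR. The submitters' processing notes name CASAVA 1.8.2. The methods name HTSeq counts per gene, but the deposited estimated counts are per Ensembl transcript and 48.99% of the values above 0 are not whole. How reads of near-identical loci were divided is not given in the sources used here. The FPKM table was not used.

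Estimated counts were rounded. Of 1626 transcripts, the 401 that the annotation (GENCODE, GRCm38) names microRNAs and whose mean was at least 5 counts over the 48 libraries were tested, and 99.2% of counts fell on microRNA transcripts. Age was tested with edgeR 4.0.16 (TMM, robust quasi-likelihood F test, two-sided, R 4.3.3) with genotype and sex as covariates, and FDR was adjusted over all loci tested. Sex was that of the library name code, which differed from the labels in 1 of 48 libraries. DESeq2 1.42.0 and other normalizations, filters, covariates and samples were alternatives. Tested on simulated data for the joint comparison (401 loci), the fit called 67.7% of changes of 0.25, 83.1% of 0.5 and 92.9% of 1 (log2), and 2.99% of unchanged loci. The simulated counts carried no effect of the L code or of the libraries that stood apart. The 2.99% therefore does not measure false calls from these.

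The rule named the 12 rising and 12 falling loci with the smallest p, 1 sign in the 3 genotypes and a mean of at least 10 CPM, then the 5 smallest p of a difference test with more than 5 calls, and, of each list, called or most abundant members. Other loci, such as Mir16-1, Mir148b, Mir152, Mir32, Mir363, Mir542, Mir503, Mir212 and Mir148a in the comparison with Q175, were added after their values were seen as seed partners, neighbours or further calls. The members and lists were chosen with earlier results of these data known. Mice of 1 genotype, age and coded sex share a code in the library name, except that Q92 at 10 months has 2 codes per sex. The 48 libraries hold 14 such codes, 6 at 2 months and 8 at 10 months. The labels do not give the meaning of these codes, and p-values measure the spread between libraries. The numbers that titles share between ages do not pair the mice: of 23 pairs of the same sex and number, 4 correlated above 0.1 in their deviations from the group means (median −0.0129).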

Additional observations from a re-analysis of the deposited data

Results flagged for a closer look

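Of 144 groups of 8 libraries examined for the 24 named loci, 24 held a library whose gap to its nearest neighbour exceeded Dixon's 95% critical value, 16.7% where chance gives about 1 in 20. The older Q92 Female replicate 1 accounted for 4 of them, with the highest Mir296 (27.0 CPM), Mir298 (391 CPM), Mir187 (91.2 CPM) and Gm25252 (442 CPM) of its group. Among these, Mir296, Mir298 and Mir187 stood toward the level of 2 months, while Gm25252 stood away from it. The older Q111 Male replicate 1 accounted for 5, with the lowest Mir30b (4021 CPM), Mir193a (21.6 CPM) and Mir15a (466 CPM) and the highest Mir298 (280.2 CPM) and Mir7-2 (51.0 CPM), each toward the level of 2 months. It is 1 of 3 libraries with low connectivity that the study's method removes, without which the joint comparison had 251 calls.

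In Q92 at 2 months, the lowest libraries stood apart for Mir29a (15992 CPM), Mir15a (281 CPM), Mir676 (301 CPM), Mir187 (36.6 CPM), Mir148a (1711 CPM), Gm24083 (14217 CPM) and Mir7-2 (41.5 CPM). In Q111 at 2 months, the highest stood apart for Mir30b (3546 CPM), Mir30c-2 (13665 CPM) and Mir541 (6502 CPM). At 10 months, Mir29c was lowest (2581 CPM) and Mir148a highest (1930.5 CPM) in Q80, Mir203 was highest in Q92 (226 CPM), and in Q111 Mir351 was lowest (176 CPM) and Mir92b highest (6757 CPM).

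The change with age differed from that in Q175 at 28 loci by the interaction test. The 5 with the smallest p were Mir135b (0.48), Mir674 (0.32), Mir669c (−0.71), Mir467a-1 (−0.55) and Mir496a (−0.30), given as the change in Q80, Q92 and Q111 minus that in Q175 on the log2 scale, and these 5 passed in every alternative run for them.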

How the results depend on the processing

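Of 128 counts of calls under alternatives, 121 stayed within 1.5 times the reported count. The 128 include the differences among genotypes, between sexes, against controls and against Q140, where the reported count was 0. A count of 0 that stays at 0 does not show how stable calls are. The joint count of 261 went to 116 (58 upward) with the L code as a covariate and to 98 (54 upward) in the L7 libraries alone, both of which rest on 2 mice of 2 months. The Q111 count of 164 went to 68 without both sets of libraries that stood apart, which leaves 2 Q111 mice of 2 months. DESeq2 gave 1 call for the difference between sexes and 1 against controls, where edgeR gave 0. With every microRNA of at least 1 count, 2 of 1124 loci differed from controls and 16 of 1111 from Q175. Scaling by library size alone moved the median of all loci by −0.06 and the share of rises from 47.5% to 38% in the joint comparison and from 51.8% to 33.1% in Q80, which had 47 rises and 95 falls in place of 72 and 67. With the title's replicate number as a replicate block, calls were 243 together, 129 in Q80, 171 in Q92 and 133 in Q111, which changed no call of the 24 named loci. Counts summed per name code gave 235 calls. Of 424 values of the 24 named loci under alternatives, 422 kept their direction and stayed past FDR 0.05, and Gm24083 (−0.11 with the L code as a covariate and in L7) did not. The 24 loci were chosen by small p in the main fit, which favours such a count. The alternatives without the libraries that stood apart, and the L code in the difference tests, were chosen after seeing the data. Loci of a few counts per library were measured least precisely.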
